A study of Mus musculus with 6 samples.

Results

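The 9 genes described here encode regulators, a receptor, enzymes and membrane proteins of the red cell lineage: Gata1, Klf1, Gfi1b, Epor, Car1, Car2, Aqp1, Slc4a1 and Ermap. They were chosen by name and role, and they are 9 of the 38924 rows of a deposited table of RNA sequencing levels. The values are RPKM, read numbers divided by the length of the gene's exons and by the library total. All cells came from the bone marrow of C57BL/6 mice that had received marrow carrying a vector, and all were sorted as positive for GFP, negative for markers of mature lineages (Lin-) and positive for c-kit, the receptor of stem and progenitor cells. The leukemia group carried Evi1 and GFP and was taken 6 months after transplantation. The preleukemia group carried Evi1 and GFP and was taken at 4 weeks. The mock group carried GFP alone and was taken at 4 weeks. Each group had 2 libraries. No GFP group at 6 months was analysed here, so time after transplantation and leukemia cannot be told apart. Whether the 2 libraries of each group stem from different mice or cultures is not stated, and a p-value here reflects only the spread between libraries, which may be technical.

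Red cells arise from progenitors that respond to erythropoietin through EPOR, a cytokine receptor that signals through JAK2 and STAT5. GATA1 is the zinc finger factor that directs erythroid and megakaryocytic genes, KLF1 is a zinc finger activator of red cell genes that binds CACC-type motifs, and GFI1B is a zinc finger repressor needed for both lineages. Car1 and Car2 encode cytosolic carbonic anhydrases, Aqp1 encodes a water channel, Slc4a1 encodes the anion exchanger band 3 of mature red cells, and Ermap encodes an erythroid membrane protein of the immunoglobulin superfamily. The sort holds immature cells, and later red cell precursors lose c-kit. In such bulk samples fewer cells of a type and less RNA per cell cannot be told apart.

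The promoters of these genes are shown because 3 of the 9 genes encode DNA-binding factors that recognise short motifs. The RefSeq promoter table for GRCm38.p6 held 6 of the 9: Gata1, Klf1, Gfi1b, Epor, Aqp1 and Ermap. The 250 bases before each gene's start in RefSeq were searched on both strands for a GATA motif (spelled AGATAA, in its variant form AGATAG, or with a different leading base TGATAA, in its variant form TGATAG) and for a KLF-type motif (CCNCNCCC). A GATA match was present in 4 of the 6 and in 26.5% of 32851 promoters of the same length, and a KLF-type match in 4 of the 6 and in 45.9%. Both were present in 2 of the 6, Gfi1b and Epor, and in 8.19% of all. The 4 promoters with a GATA match follow, read 5′ to 3′ along the gene's strand, with the matches to either motif in capitals. They lie at chr8:84901732-84901981 on the plus strand (Klf1), chr2:28621983-28622232 on the minus strand (Gfi1b), chr9:21963577-21963826 on the minus strand (Epor) and chr4:119189996-119190245 on the minus strand (Ermap).
Klf1: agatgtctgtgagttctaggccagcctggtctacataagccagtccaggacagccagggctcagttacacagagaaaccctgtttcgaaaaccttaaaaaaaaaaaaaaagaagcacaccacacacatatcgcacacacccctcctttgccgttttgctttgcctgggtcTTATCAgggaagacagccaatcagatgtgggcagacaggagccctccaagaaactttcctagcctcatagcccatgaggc
Gfi1b: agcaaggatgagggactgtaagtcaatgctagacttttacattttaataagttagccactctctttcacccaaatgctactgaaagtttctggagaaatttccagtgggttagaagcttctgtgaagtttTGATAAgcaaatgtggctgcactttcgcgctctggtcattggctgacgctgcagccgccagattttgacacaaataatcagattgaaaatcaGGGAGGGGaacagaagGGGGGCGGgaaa
Epor: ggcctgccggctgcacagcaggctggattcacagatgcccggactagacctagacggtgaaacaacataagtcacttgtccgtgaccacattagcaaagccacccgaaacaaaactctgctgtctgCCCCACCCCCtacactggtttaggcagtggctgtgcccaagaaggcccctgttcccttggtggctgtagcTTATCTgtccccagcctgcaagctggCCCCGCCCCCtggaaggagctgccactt
Ermap: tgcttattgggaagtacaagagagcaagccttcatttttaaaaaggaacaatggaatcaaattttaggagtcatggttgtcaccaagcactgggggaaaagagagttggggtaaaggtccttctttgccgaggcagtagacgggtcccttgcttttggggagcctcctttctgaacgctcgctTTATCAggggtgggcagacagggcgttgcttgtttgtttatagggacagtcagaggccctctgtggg
The GATA match began 80 bases before the start in Klf1, 120 in Gfi1b, 54 in Epor and 67 in Ermap. KLF-type matches began 28 and 12 bases before the start in Gfi1b. In Epor they began 124, 122, 28 and 26 bases before it, as 2 overlapping pairs. These distances are from the RefSeq start, which can differ from the outermost GENCODE M21 start that bounds the gene positions given below. The RefSeq start lay 54 bases downstream of it in Klf1, 16 downstream in Ermap, 70 upstream in Epor and at the same base in Gfi1b. Gata1 and Aqp1 held KLF-type matches and no GATA match in this window. Their RefSeq starts lay 10161 bases downstream of the GENCODE start in Gata1 and 133 upstream in Aqp1. The Gata1 window therefore lies inside the gene position given below, and bases before the GENCODE start of Gata1 were not searched. A match is a description of letters and not a site of binding.

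The steps between low values gave library totals of 16922226 to 21642776 reads, so that a single read over 1 kb of exon equals 0.0462 to 0.0591 RPKM. Mecom, the gene of Evi1, had 61.7 and 71.5 RPKM in leukemia libraries 1 and 2, 78.0 and 80.1 RPKM in the preleukemia libraries, and 0.774 and 0.805 RPKM in the mock libraries; vector transcripts and those of the mouse locus cannot be told apart. Kit, which encodes the receptor used in the sort, was at 46.8 to 69.2 RPKM in the 6 libraries. Of lineage genes, the T cell gene Cd3e was at most 0.0411 RPKM in any library, whereas Itgam, a myeloid integrin, stood at 13.7 and 21.7 RPKM in leukemia, 37.1 and 53.2 in preleukemia, and 4.66 and 4.77 in mock libraries. Groups were compared by limma on the scale of log2(RPKM + 1) over 10958 genes that reached 1 RPKM in 2 or more libraries, and a gene is called changed at a Benjamini-Hochberg adjusted p under 0.05. Of the 9 genes 8 passed the filter, and Slc4a1 did not. A fold change on this scale is smaller than the ratio of RPKM for genes of low level.

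In leukemia cells 7 of the 8 genes tested fell relative to mock cells, where 13.5% of all genes tested fell. The exception was Gfi1b. The median difference of the 8 genes was -3.14, against -0.04 over all genes tested. Both leukemia libraries lay below both mock libraries for 8 of 8 genes, as they did for 35.5% of all genes tested. In preleukemia cells 1 of the 8 genes, Aqp1, fell relative to mock, where 6.02% of all genes fell, and the median was -0.81 against 0.05. The libraries did not overlap, with preleukemia lower, for 4 of the 8 (Epor, Car2, Aqp1 and Ermap) and for 25.5% of all genes. In leukemia relative to preleukemia cells 6 of the 8 fell, where 13% of all genes fell, and the median was -2.08 against -0.09. Here 8 of 8 genes did not overlap, as did 46% of all genes in the same direction. The comparisons of leukemia and preleukemia with mock share the mock libraries and are not independent of each other.

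**Figure D1:**
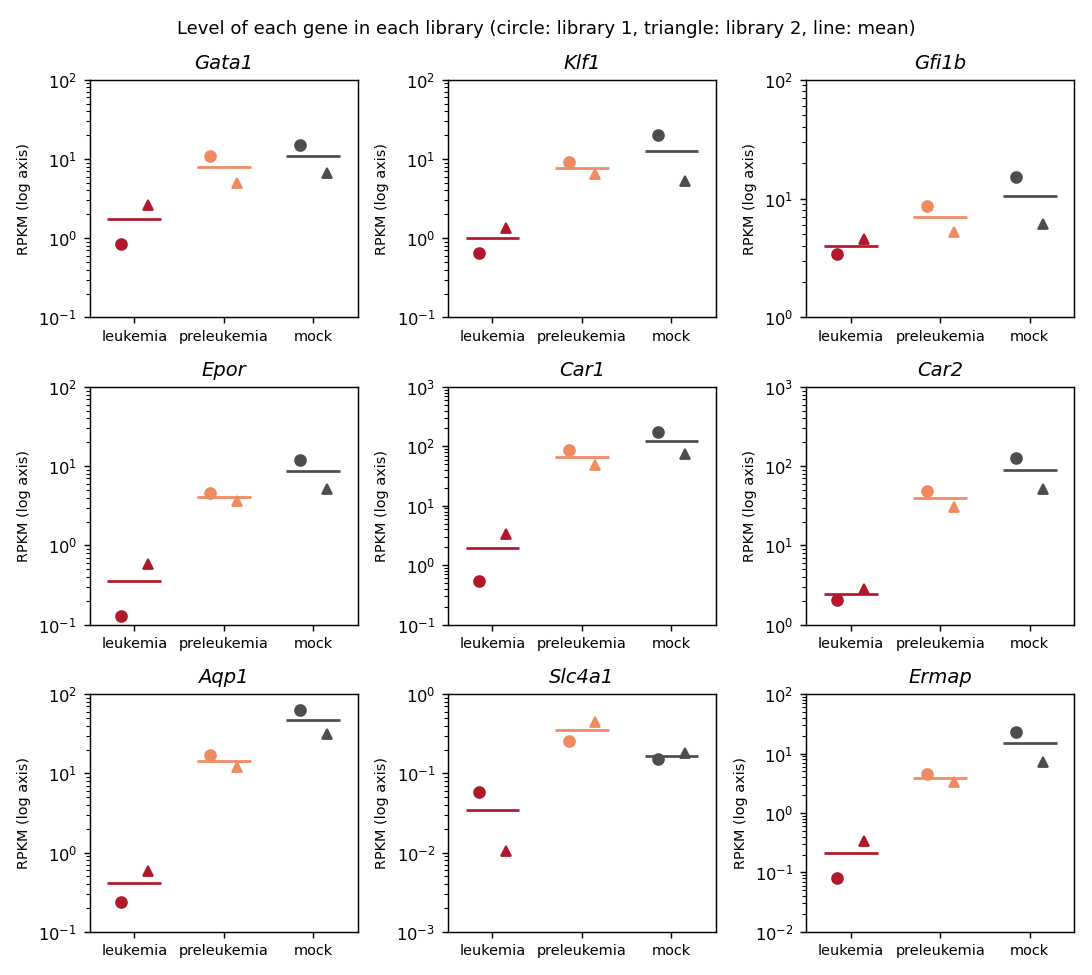
Level in RPKM on a log axis of each of the 9 genes in the leukemia, preleukemia and mock groups, with library 1 as a circle, library 2 as a triangle and the group mean as a line. For every gene but Slc4a1 mock library 1 is the highest point, and for all 9 both leukemia points lie under both points of each other group; the axis range differs between panels.

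Of the transcription factors, Gata1 (chrX:7959260-7978071, minus strand, GRCm38) had 0.840 and 2.61 RPKM in leukemia libraries, 10.9 and 4.98 RPKM in preleukemia libraries and 15.2 and 6.60 RPKM in mock libraries. These values stand for 43 and 125 reads in leukemia, 448 and 263 in preleukemia, and 800 and 325 in mock libraries. Both leukemia libraries were below the other 4, and the preleukemia and mock libraries overlapped. Relative to mock, Gata1 in leukemia fell by 2.11 on the log2 scale (SE 0.49, limma adjusted p = 0.0238). The leukemia mean was 15.8% of the mock mean. Without mock library 1 the difference was -1.56 (adjusted p = 0.0676), and without leukemia library 1 it was -1.62 (adjusted p = 0.118); with no filter on low values the adjusted p was 0.0816. Relative to preleukemia the difference of -1.71 did not pass (limma adjusted p = 0.0571), and it did pass without mock library 1 (adjusted p = 0.0327), without mock library 2 (adjusted p = 0.0324) and in a fit of the leukemia and preleukemia libraries alone (adjusted p = 0.0333). Preleukemia differed from mock by -0.40 with a 95% interval of -1.57 to 0.78.

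Klf1 (chr8:84901928-84905291, plus strand) had 0.652 and 1.36 RPKM in leukemia, 9.05 and 6.39 RPKM in preleukemia and 20.2 and 5.29 RPKM in mock libraries. Leukemia libraries were lowest, while both preleukemia libraries lay between the 2 mock libraries. In leukemia Klf1 fell by 2.55 relative to mock (limma adjusted p = 0.0155) and fell by 2.13 relative to preleukemia (limma adjusted p = 0.0357). The leukemia mean was 7.90% of the mock mean and 13.0% of the preleukemia mean. The call against mock was lost without leukemia library 1 (adjusted p = 0.0842) or library 2 (adjusted p = 0.0547), with no filter (adjusted p = 0.0612) and with voom on the implied reads (adjusted p = 0.0558). The call against preleukemia was lost without any 1 of the 4 libraries compared, with no filter and with voom on the implied reads. Preleukemia differed from mock by -0.42 with a 95% interval of -1.67 to 0.83, and without mock library 2 it fell by 1.30 (adjusted p = 0.0320).

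Gfi1b (chr2:28609450-28621982, minus strand) had the smallest difference of the 8 genes between leukemia and mock. It had 3.43 and 4.59 RPKM in leukemia, 8.65 and 5.20 RPKM in preleukemia, and 15.1 and 6.08 RPKM in mock libraries. In reads this was 132 and 165 in leukemia, 268 and 206 in preleukemia, and 596 and 225 in mock libraries. The leukemia libraries were the lowest, by a small margin to preleukemia library 2. The difference from mock of -1.10 had a 95% interval of -2.04 to -0.16 and did not pass (limma adjusted p = 0.0835). It was -1.69 and passed without mock library 2 (adjusted p = 0.0120). Leukemia differed from preleukemia by -0.64 with an interval of -1.57 to 0.30. In both leukemia libraries Gfi1b was the highest of the 9 genes, at 4.09 and 1.76 times the Gata1 level per length in libraries 1 and 2. In the preleukemia libraries that ratio was 0.797 and 1.04, and in the mock libraries 0.993 and 0.922.

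Epor, the erythropoietin receptor (chr9:21958897-21963506, minus strand), had 0.130 and 0.584 RPKM in leukemia, 4.59 and 3.61 RPKM in preleukemia, and 11.9 and 5.19 RPKM in mock libraries. The 3 groups did not overlap and stood in the order leukemia, preleukemia, mock. In leukemia Epor fell by 2.74 relative to mock (SE 0.35, limma adjusted p = 0.00294), and the mean was 4.17% of the mock mean. It passed under each of the 15 alternatives tried. Epor also fell by 1.92 relative to preleukemia (limma adjusted p = 0.0136). That call was lost without preleukemia library 1 (adjusted p = 0.0845) or 2 (adjusted p = 0.0759) and without leukemia library 1 (adjusted p = 0.0931). Preleukemia cells held 47.9% of the mock mean, a difference of -0.82 with a 95% interval of -1.65 to 0.02 that did not pass, and without mock library 2 it fell by 1.35 (adjusted p = 0.0217).

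The carbonic anhydrases were the most abundant of the 9 genes outside leukemia. Car1 (chr3:14766216-14808368, minus strand) had 0.534 and 3.34 RPKM in leukemia, 86.2 and 48.6 RPKM in preleukemia, and 174 and 73.4 RPKM in mock libraries. In reads this was 14 and 82 in leukemia, 1821 and 1313 in preleukemia, and 4700 and 1851 in mock libraries. The leukemia libraries stood far below the rest, and the other groups overlapped. Car1 fell by 5.47 relative to mock (SE 0.58, limma adjusted p = 0.00162), the largest difference of the 8 genes on the scale of log2(RPKM + 1). It fell by 4.67 relative to preleukemia (limma adjusted p = 0.00424). Both calls held under the 15 alternatives. The leukemia mean was 1.57% of the mock mean. As a ratio of mean RPKM Car1 was 63.9 times lower than in mock, against 115.9 for Aqp1 and 72.2 for Ermap.

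Car2 (chr3:14886273-14900770, plus strand) had 2.02 and 2.82 RPKM in leukemia, 49.0 and 30.3 RPKM in preleukemia, and 126 and 52.0 RPKM in mock libraries. The groups did not overlap. Car2 fell by 4.59 relative to mock (SE 0.41, limma adjusted p = 0.000947) and fell by 3.54 relative to preleukemia (limma adjusted p = 0.00348), and both calls held under the 15 alternatives. Preleukemia differed from mock by -1.05, with a 95% interval of -2.03 to -0.07 that did not pass the adjusted threshold (limma adjusted p = 0.119). Without mock library 2 it fell by 1.68 (adjusted p = 0.0198). The ratio of Car1 to Car2 was 1.76 and 1.61 in preleukemia and 1.39 and 1.41 in mock libraries. It was 0.264 and 1.19 in the leukemia libraries, where Car1 stood at few reads in library 1.

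Among the membrane genes, Aqp1 (chr6:55336432-55348555, plus strand) was the gene that passed the test in all 3 comparisons. It had 0.236 and 0.581 RPKM in leukemia, 16.9 and 11.9 RPKM in preleukemia, and 63.5 and 31.1 RPKM in mock libraries. These came from 13 and 30 reads in leukemia, 753 and 679 in preleukemia, and 3606 and 1653 in mock libraries. The 3 groups were ordered without overlap. In leukemia Aqp1 fell by 5.03 relative to mock (SE 0.33, limma adjusted p = 0.000326) and fell by 3.45 relative to preleukemia (limma adjusted p = 0.00235). The leukemia mean was 0.863% of the mock mean, a ratio of RPKM 115.9 times lower. In preleukemia it fell by 1.58 relative to mock (SE 0.33, limma adjusted p = 0.0215), and the mean was 30.5% of the mock mean. This last call was lost without preleukemia library 1 (adjusted p = 0.0634) or library 2 (adjusted p = 0.146) and with no filter (adjusted p = 0.0782).

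Ermap (chr4:119175457-119190011, minus strand) had 0.0809 and 0.336 RPKM in leukemia, 4.61 and 3.28 RPKM in preleukemia, and 22.8 and 7.27 RPKM in mock libraries. These came from 9 and 35 reads in leukemia, 413 and 376 in preleukemia, and 2615 and 778 in mock libraries. Again no group overlapped another. Ermap fell by 3.55 relative to mock (SE 0.45, limma adjusted p = 0.00299) under each of the 15 alternatives, with a leukemia mean of 1.39% of the mock mean. It fell by 2.03 relative to preleukemia (limma adjusted p = 0.0263). That call was lost without any 1 of the 4 libraries compared, with no filter and with voom on the implied reads. The preleukemia mean was 26.2% of the mock mean, yet the difference of -1.52 did not pass (limma adjusted p = 0.0605). Without mock library 2, the lower of the mock pair, it was -2.28 and passed (adjusted p = 0.00509).

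Slc4a1, band 3 (chr11:102348824-102366203, minus strand), was near the limit of detection. It had 0.0584 and 0.0104 RPKM in leukemia, 0.254 and 0.444 RPKM in preleukemia, and 0.151 and 0.182 RPKM in mock libraries. It had 6 and 1 reads in leukemia, 21 and 47 in preleukemia, and 16 and 18 in mock libraries. Leukemia was lowest and preleukemia highest, so the order of the other 8 genes was not seen here. With no filter on low values the difference was -0.17 for leukemia against mock (limma adjusted p = 0.223), -0.38 for leukemia against preleukemia (adjusted p = 0.0568) and 0.21 for preleukemia against mock (adjusted p = 0.184). None passed in this setting, the only one run for Slc4a1. For leukemia against preleukemia the unadjusted p was 0.00429, and the leukemia mean was 10.1 times lower as a ratio of RPKM.

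**Figure D2:**
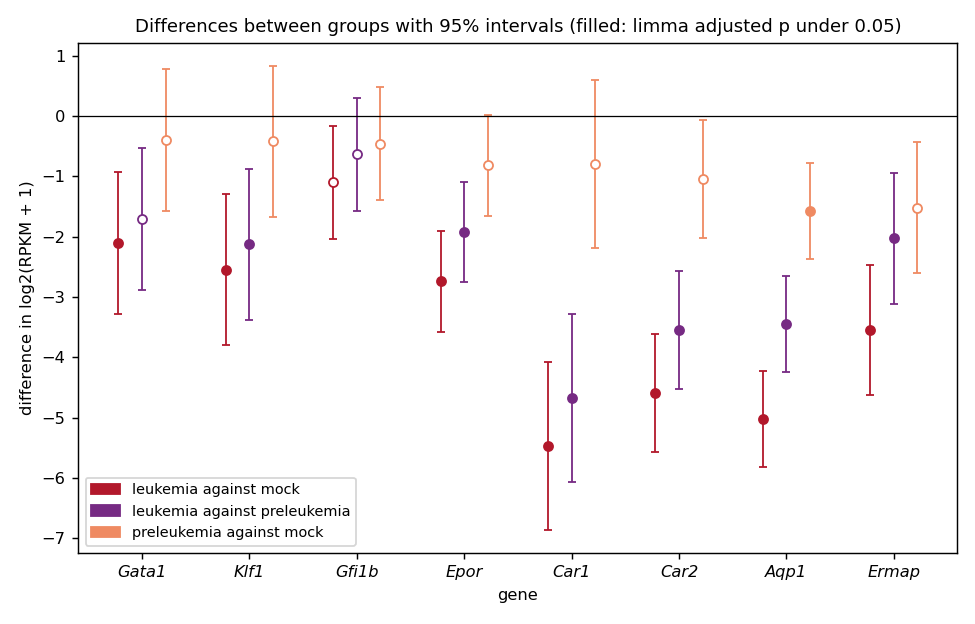
Difference in log2(RPKM + 1) with 95% intervals for leukemia against mock, leukemia against preleukemia and preleukemia against mock, for the 8 genes tested; filled points passed at adjusted p under 0.05. Car1, Aqp1 and Car2 lie lowest for leukemia against mock, at -5.47, -5.03 and -4.59, and Gfi1b nearest to 0 at -1.10.

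The libraries of a group differed among themselves in the same direction across the genes. In mock, library 1 was above library 2 for 8 of the 8 genes tested, with a median difference of 1.21 on the log2 scale. Over all genes tested 58.9% were higher in library 1 and the median difference was 0.07. In preleukemia, library 1 was higher for 8 of 8, with a median of 0.55, where 56.8% of all genes were higher. In leukemia, library 1 was higher for 0 of 8, with a median of -0.42, where 54.1% of all genes were higher. The summed level of the 9 genes was 7.99 and 16.2 RPKM in leukemia, 190.2 and 115 RPKM in preleukemia, and 449 and 187 RPKM in mock libraries 1 and 2. Mock library 2 was close to preleukemia library 1 in sum. The median difference within the mock pair, 1.21, was larger in size than the -0.81 between the preleukemia and mock groups.

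**Figure D3:**
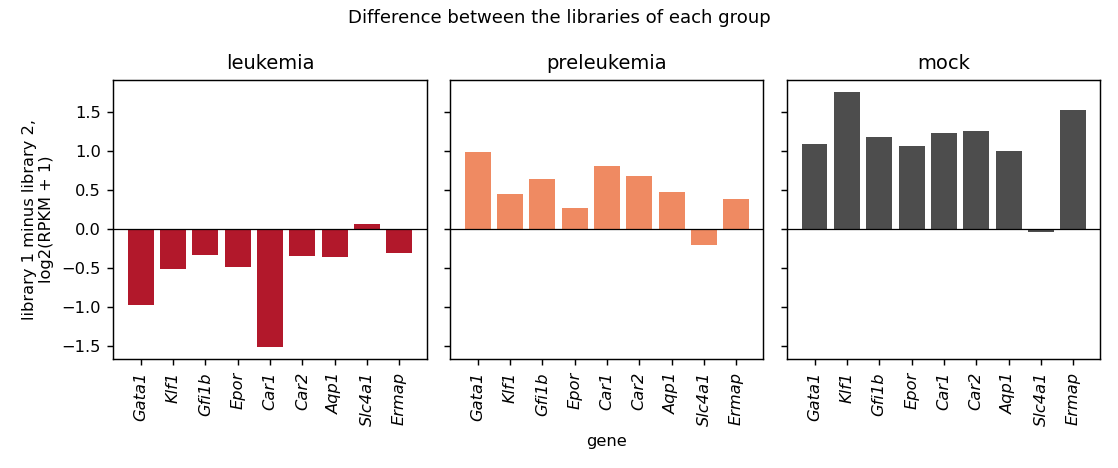
Library 1 minus library 2 on the scale of log2(RPKM + 1) for the 9 genes in the leukemia, preleukemia and mock groups. All bars but that of Slc4a1 are below 0 in leukemia and above 0 in preleukemia and in mock, where Klf1 and Ermap differ most.

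Other genes of the same functions did not all follow. The counts below stand beside those over all 10958 genes tested. Of these, 1328 rose and 1481 fell in leukemia relative to mock. In preleukemia relative to mock 1480 rose and 660 fell, and in leukemia relative to preleukemia 578 rose and 1428 fell. The table held 28 other red cell membrane and skeleton genes, of which 20 were tested. In leukemia 13 of them fell relative to mock and 0 rose by limma (0 higher at an unadjusted p under 0.05), with a median of -1.15. The count was 6 without leukemia library 1, 5 without leukemia library 2, and at most 14 in any alternative. Kel, the Kell blood group protein, fell by 2.64 (limma adjusted p = 0.00580), and Cldn13, a claudin, fell by 2.35 (adjusted p = 0.00443). Rhag, the Rh-associated glycoprotein, fell by 2.34 (adjusted p = 0.0050), and Add2, a subunit of the skeletal protein adducin, fell by 2.23 (adjusted p = 0.00382). Each of these 4 calls held under the 15 alternatives. Kel had 0.0343 and 0.0734 RPKM in leukemia and 9.39 and 3.14 RPKM in mock libraries, and Cldn13 was listed at 0 in both leukemia libraries. In preleukemia 2 of the 20 fell relative to mock, and none rose by limma (1 higher at an unadjusted p under 0.05). Cldn13 fell by 1.47 (adjusted p = 0.0277) and the nucleoside transporter Slc29a1 fell by 1.02 (adjusted p = 0.00647). Both calls were lost without either preleukemia library, where 0 of the 20 passed and 4 and 2 were lower at an unadjusted p under 0.05 without library 1 and without library 2. That of Cldn13 was also lost without either leukemia library. Without mock library 1 the count was 5, without mock library 2 it was 10, and after quantile normalization 4. Relative to preleukemia 9 of the 20 fell in leukemia. Without preleukemia library 1 or 2 none did by limma, with 8 and 12 lower at an unadjusted p under 0.05, and without leukemia library 1 or 2 the count was 1. Without either mock library, and in a fit of the leukemia and preleukemia libraries alone, 16 passed. After quantile normalization 4 fell and 1 rose, and after median-ratio scaling 9 fell and 1 rose.

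The 18 transcription partners of the erythroid factors did not move in one direction in leukemia. Relative to mock 4 rose and 4 fell, and the median was -0.02, which was 0.01 after median-ratio scaling and 0.06 after quantile normalization. Without leukemia library 1 the calls were 3 higher and 1 lower, and without leukemia library 2 there were 5 in all. Tal1, the helix-loop-helix factor that joins GATA1 in a DNA-binding complex, fell by 2.32 (limma adjusted p = 0.00293). It had 1.96 and 2.58 RPKM in leukemia, 13.5 and 10.1 RPKM in preleukemia, and 21.2 and 10.9 RPKM in mock libraries. Its relative Lyl1 rose by 1.17 (adjusted p = 0.00136), Lmo2, the bridging protein of that complex, by 1.06 (adjusted p = 0.00433), and Nfe2, a subunit of the erythroid and megakaryocytic factor NF-E2, by 1.29 (adjusted p = 0.00388). These 4 calls held under the 15 alternatives. Lmo2 had 201 and 154 RPKM in leukemia, 161 and 152 RPKM in preleukemia, and 91.3 and 77.2 RPKM in mock libraries. In preleukemia 6 of the 18 rose and 2 fell relative to mock, with 4 calls in all without preleukemia library 1, 1 without preleukemia library 2 and 9 without mock library 2. There Lyl1 rose by 1.28 (adjusted p = 0.00146), the repressor Gfi1 by 1.79 (adjusted p = 0.00774), Nfe2 by 1.23 (adjusted p = 0.00639) and Spi1, the myeloid factor PU.1, by 0.83 (adjusted p = 0.00869). The last 3 were lost without preleukemia library 2. In leukemia relative to preleukemia 5 fell and 0 rose by limma (2 higher at an unadjusted p under 0.05), and 2 rose after either scaling. Tal1 fell by 1.96 (adjusted p = 0.00769), a call lost without preleukemia library 1 or leukemia library 1. Zfpm1, the GATA1 cofactor FOG1, fell by 1.31 (adjusted p = 0.0147), a call lost without either preleukemia library or leukemia library 1. The calls numbered 9 without either mock library, 3 without preleukemia library 1 and 1 without preleukemia library 2. None of the 18 passed without leukemia library 1, where 5 were lower at an unadjusted p under 0.05.

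Of 13 genes of erythropoietin signalling, 2 rose and 2 fell in leukemia relative to mock, and their median was 0.04. Over all 10958 genes tested 1328 rose and 1481 fell, with a median of -0.04. Ptpn6, the phosphatase that dampens the receptor's signal, rose by 0.89 (limma adjusted p = 0.00188) and did so under the 15 alternatives. Tfrc, the transferrin receptor, fell by 0.65 (adjusted p = 0.0139), Jak2, the kinase of the receptor, fell by 0.43 (adjusted p = 0.0239), and Stat5b rose by 0.44 (adjusted p = 0.0373). Each of the last 3 was lost without leukemia library 1 or 2, Jak2 and Stat5b also without either preleukemia library, and Stat5b also without mock library 2. Jak2 had 15.1 and 15.9 RPKM in leukemia and 20.3 and 21.9 RPKM in mock libraries, so that its difference was small beside that of Epor. In preleukemia 1 of the 13 passed relative to mock: Ptpn6 rose by 1.25 (adjusted p = 0.000956). Without mock library 1 the count was 3, and without mock library 2 it was 4. In leukemia relative to preleukemia 1 rose and 2 fell. None passed by limma without any 1 of the 4 libraries compared, where 1 was higher and 2 were lower at an unadjusted p under 0.05, and after quantile normalization 1 rose and none fell.

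The table held 14 other carbonic anhydrases, and 4 of them were tested. In leukemia relative to mock Car12, a membrane-bound form, rose by 0.79 (limma adjusted p = 0.00803), whereas Car13 fell by 0.89 (adjusted p = 0.0150) and Car3 fell by 1.13 (adjusted p = 0.0246). Car12 had 3.46 and 3.16 RPKM in leukemia, 1.09 and 1.06 RPKM in preleukemia, and 1.42 and 1.56 RPKM in mock libraries. The call of Car12 was lost without leukemia library 1, that of Car13 without leukemia library 2, and that of Car3 without either leukemia library or mock library 1. In leukemia relative to preleukemia Car12 rose by 1.05 (adjusted p = 0.00455) and Car13 fell by 1.46 (adjusted p = 0.00422), under each of the 15 alternatives. None of the 4 passed for preleukemia against mock by limma, with 1 higher and 0 lower at an unadjusted p under 0.05.

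Of 13 globin and heme genes 1 rose and 5 fell in leukemia relative to mock, with a median of -0.31, and 1 in all passed without leukemia library 1. In preleukemia 3 rose relative to mock, 7 in all passed without mock library 1 and 2 without either preleukemia library, and in leukemia relative to preleukemia 1 rose and 4 fell. Those 5 calls were 3 without preleukemia library 1, 2 without preleukemia library 2, and 8 without either mock library or in a fit of the 4 libraries alone. The single riser in leukemia was Hbb-bt, an adult beta-globin, which rose by 5.85 relative to mock (limma adjusted p = 0.000206). It had 266 and 298 RPKM in leukemia, 64.1 and 44.6 RPKM in preleukemia, and 2.43 and 5.98 RPKM in mock libraries. Hbb-bs, a near-identical copy, fell in leukemia by 0.91 relative to mock (limma adjusted p = 0.0458). It had 0.331 and 1.36 RPKM in leukemia, 22.3 and 22.5 RPKM in preleukemia, and 2.04 and 2.64 RPKM in mock libraries. Reads of these copies can be split by the counting in a way that is not given in the sources used here, so both levels are uncertain. The 3 genes that rose in preleukemia relative to mock were all globins. Hbb-bt rose by 3.48 (limma adjusted p = 0.00148), Hbb-bs by 2.81 (adjusted p = 0.00146) and Hba-a1 by 2.06 (adjusted p = 0.0316).

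**Figure D4:**
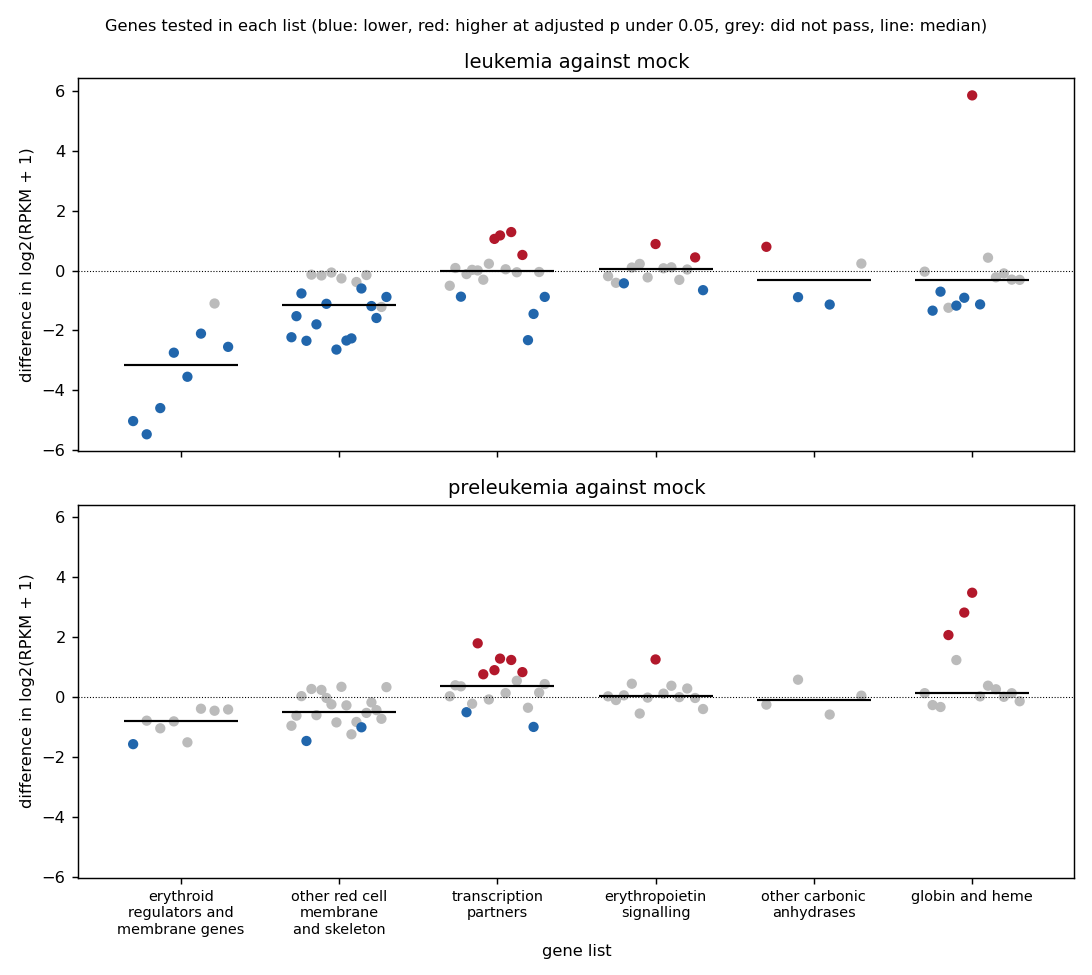
Difference in log2(RPKM + 1) of each gene tested in 6 lists, for leukemia against mock (top) and preleukemia against mock (bottom), with the list median as a line and genes that passed in colour. The 8 erythroid regulator and membrane genes tested have a median of -3.14 in leukemia and -0.81 in preleukemia, other membrane and skeleton genes -1.15 and -0.49, and the remaining 4 lists between -0.33 and 0.37.

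Genes outside the list with the profile nearest to that of the 8 genes were found by the root mean square distance between log2 profiles, each centred on its own mean over the 6 libraries, and the median profile of the 8. A row whose name a spreadsheet had turned into a date came first, at 0.18. It was followed by Cd27 and Atp1b2 at 0.25, Pklr at 0.26, Blvrb at 0.28, Kel at 0.29, Gpr128 at 0.32 and Hoxa7 at 0.36. Pklr encodes the red cell and liver pyruvate kinase, Blvrb a biliverdin reductase, Atp1b2 a sodium pump subunit and Cd27 a receptor of the tumour necrosis factor family. Pklr had 0.0294 and 0.0944 RPKM in leukemia, 2.96 and 2.41 RPKM in preleukemia, and 12.8 and 4.13 RPKM in mock libraries. Cd27 had 0.123 and 0.0874 RPKM in leukemia, 3.91 and 2.62 RPKM in preleukemia, and 12.5 and 5.82 RPKM in mock libraries. Among the chosen genes Epor was nearest to the median profile at 0.25, followed by Ermap at 0.28 and Klf1 at 0.32, and Car1 was farthest at 1.16.

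Markers of other cell types also differed between the groups, some in the direction of the erythroid genes and some in the opposite one, and their part in the results was not tested. The summed level of 11 megakaryocyte markers was 4.86 to 14.3 RPKM in leukemia, 59.6 to 80.6 in preleukemia and 39.7 to 41.5 in mock libraries. Of 10 tested, 5 fell in leukemia relative to mock, 3 rose and 1 fell in preleukemia relative to mock, and 8 fell in leukemia relative to preleukemia. Without preleukemia library 1, 2 changed in preleukemia relative to mock and 5 in leukemia relative to preleukemia, and without leukemia library 1 5 changed in leukemia relative to preleukemia. Pf4, platelet factor 4, stood at 0 and 0.521 RPKM in leukemia libraries, and Gp6 was at 0 in every library. The 8 mast cell and basophil markers summed to 18.5 to 18.8 RPKM in leukemia, 23.0 to 26.0 in preleukemia and 76.3 to 106 in mock libraries, and 6 of 6 tested fell in leukemia and 5 of 6 in preleukemia relative to mock. The mast cell protease genes Tpsb2 and Cma1 were at 0 in every library. The 10 neutrophil markers summed to 419.7 to 719 RPKM in leukemia, 3863 to 8280 in preleukemia and 13.5 to 17.9 in mock libraries. Relative to mock, 4 of the 10 were higher in leukemia and 7 in preleukemia. Most of the leukemia sum came from S100a8, at 227 and 373 RPKM, and S100a9, at 173 and 284 RPKM. Mean levels of Mmp8 and Ly6g were lower in leukemia than in mock, at 0.0415 against 1.05 and 0.0757 against 1.13 RPKM, and neither passed. Whether mature neutrophils remained after the lineage-negative sort was not tested. The 6 eosinophil markers summed to 5.44 RPKM in leukemia library 1 and 174 in leukemia library 2, where Prg2 had 1.87 and 133 RPKM. They summed to 87.6 to 88.6 in preleukemia and 33.6 to 53.3 in mock libraries. Of 4 tested, 1 fell in leukemia relative to mock, and 1 rose and 1 fell in preleukemia relative to mock. With no filter on low values none of these calls passed. Carbonic anhydrase 2 and aquaporin 1 are also made by osteoclasts and endothelium: the 7 osteoclast markers summed to 0.531 to 0.956 RPKM in leukemia, 1.93 to 2.65 in preleukemia and 1.93 to 2.04 in mock libraries. The 8 endothelial markers summed to 48.4 to 49.5 RPKM in leukemia, 33.2 to 39.5 in preleukemia and 32.4 to 32.7 in mock libraries, most of it from Pecam1, which is also made by blood cells. Of 3 tested, Pecam1 rose in leukemia by 0.76 relative to mock (limma adjusted p = 0.0104). The angiopoietin receptor gene Tek fell by 1.04 (adjusted p = 0.00731) and its relative Tie1 fell by 1.52 (adjusted p = 0.00937). Without leukemia library 1 only 1 of the 3 passed. Tie1 had 0.136 and 0.745 RPKM in leukemia, 7.60 and 8.79 RPKM in preleukemia, and 3.95 and 2.27 RPKM in mock libraries. In preleukemia relative to mock Tie1 rose by 1.19 (limma adjusted p = 0.0265). That call was lost with a pseudocount of 0.1, with no filter on low values, without mock library 2 and without either preleukemia library. Tek differed there by 0.07 and did not pass. Cdh5 and Kdr, also endothelial markers, were at most 0.0741 and 0.0952 RPKM in any library.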

How the data were processed

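Total RNA of the sorted cells was extracted with Nucleospin RNA and made into libraries with a NEBNext Ultra kit, per the labels' protocols. By its name the kit keeps no strand, so a gene and its antisense partner cannot be told apart. Among annotated GENCODE M21 exons, none of another gene, on either strand, shared bases with those of the 9 genes. CASAVA 1.8.2 and GRCm38 are listed without roles, per the submitters' processing notes. For aligner, counter and annotation, the entry is: not given in the sources used here. The authors deposited 1 table of RPKM; the unit was inferred from the values, since 64.1% to 66.0% of low values were whole reads (4% by chance, within 0.02) at GENCODE M21 exon lengths, and gene positions are from that release. Read numbers are given for 6 of the 9 genes, whose values were whole. Intervals are of the fit, and read numbers carry counting error only.

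The tests used limma (version 3.58.1, under R 4.3.3) on log2(RPKM + 1), with a filter of 1 RPKM in 2 libraries, group means over 6 libraries, a spread that follows the mean (3 residual and 3.70 prior degrees of freedom), two-sided tests and Benjamini-Hochberg adjustment over 10958 genes. The test was tried on simulated libraries with the same fixed dispersion for every gene and no difference between libraries shared across genes. That setting does not cover shared differences such as those within the mock pair. The genes and lists were chosen with earlier results of these data known. Named are the 9 genes, up to 4 genes with the smallest p per list and comparison, the 8 nearest profiles and Mecom; Pf4, Itgam, Cd3e, Hbb-bs, and other genes outside this rule were picked with their values in view. The 15 alternatives were pseudocounts, no filter, scalings, a fit of the 4 libraries compared, a replicate block, no trend, voom on implied reads, and each library left out in turn; their use on the lists was chosen after seeing the data.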

Additional observations from a re-analysis of the deposited data

How the results depend on the processing

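Over 15 alternatives, all 8 genes stayed lower in leukemia than in mock and than in preleukemia. Of the called differences 5 held against mock in every alternative (Epor, Car1, Car2, Aqp1 and Ermap) and 3 against preleukemia (Car1, Car2 and Aqp1). In preleukemia against mock the direction reversed without mock library 1 for Gata1 (0.15), Klf1 (0.45) and Gfi1b (0.13), and without preleukemia library 2 for Gata1 (0.10); the cause was not tested. Without mock library 2 these differences were -0.94, -1.30 and -1.05. Leaving out 1 library gave 5 to 8 of the 8 genes changed for leukemia against mock, 3 to 7 for leukemia against preleukemia and 0 to 5 for preleukemia against mock. Over all genes it gave 1046 to 3848, 430 to 3449 and 520 to 3873 in the same comparisons, against 2809, 2006 and 2140. The lowest counts came without leukemia library 2 for leukemia against mock and without preleukemia library 2 for the other comparisons, and the highest without mock library 1. With no filter 3 of the genes changed for leukemia against preleukemia (1302 of all genes), as Klf1, Epor and Ermap no longer passed. With no filter 0 changed for preleukemia against mock by limma, where 3 had an unadjusted p under 0.05, and with quantile normalization 2 did. A fit of the 4 libraries alone gave 3428 genes for leukemia against preleukemia and 1374 for preleukemia against mock. Of all calls, 69.2% were higher in preleukemia than in mock, 58.9% after median-ratio scaling and 52.9% after quantile normalization; for leukemia against preleukemia the shares were 28.8%, 42.65% and 50.8%. The replicate block gave 2932, 2060 and 2118 genes for leukemia against mock, leukemia against preleukemia and preleukemia against mock, and 7, 6 and 1 of the 8 genes. Same-numbered libraries deviated together with correlations of 0.01, 0.18 and 0.12, which did not all pass 0.1, so the numbers were not taken to pair the libraries; whether any shared a day or batch is not stated. With 2 libraries a group, the mock pair sets much of the spread, and few reads limit Slc4a1 in every library and Epor, Ermap, Aqp1, Car1 and Klf1 in leukemia library 1.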
